A study of Rattus norvegicus with 6 samples.

Results

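The genes described here are 9 transcription factors of the embryonic forebrain and eye field, Lhx2, Lhx9, Six3, Six6, Rax, Emx2, Hesx1, Fezf1 and Otx1. They were taken by symbol from the main rows of the deposited array table, where each had 1 row, out of 20258 tested rows covering 19634 gene symbols. RNA was measured in 6 pools of flow-sorted cells from rat embryos at stage E10.5 (embryonic days), labelled as neuroepithelial progenitor cells, the dividing cells that line the neural plate and early neural tube. The 3 retinoic acid pools came from embryos of dams gavaged with all-trans retinoic acid at 60 mg/kg in olive oil, and the 3 control pools from dams given the oil alone. The sources used here name no strain, dosing day or sorting gate. A pool combines several biological samples whose number is not stated, so p-values measure only the spread between pools. In both groups a commercial set of synthetic control RNAs (ERCC ExFold) was added, as mix 1 in the controls and mix 2 in the retinoic acid pools.

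The front of the neural plate becomes the telencephalon, the diencephalon and the eyes. Six3, Rax, Six6 and Lhx2 are homeodomain factors of the eye field and optic vesicle, Hesx1, Otx1 and Fezf1 mark the anterior neural plate and its derivatives, and Emx2 and Lhx9 act in the cerebral wall and neighbouring forebrain. Retinoic acid is a posteriorizing signal of the neural axis, and the early forebrain is normally shielded from it by enzymes that degrade it. In the mouse, Lhx2 and Lhx9 also act in limb bud mesenchyme and Lhx9 and Emx2 in the urogenital ridge, so neither LIM factor marks forebrain cells alone.

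Lhx2, which is needed in mice for the optic vesicle to become an optic cup, was one of the members whose level differed between the groups. For it, and for Six3, an eye field factor that did not pass the test, the stretch around the transcription start is shown, from 250 bases before to 50 bases after it. Sequences are those of RefSeq on rat assembly GRCr8, written 5′ to 3′ on the strand of the gene: chr3:42535494-42535793, plus strand, for Lhx2 and chr6:14796207-14796506, minus strand, for Six3. Capitals mark a match to 1 of the 4 letter forms searched for the retinoid receptor recognition motif.
Lhx2: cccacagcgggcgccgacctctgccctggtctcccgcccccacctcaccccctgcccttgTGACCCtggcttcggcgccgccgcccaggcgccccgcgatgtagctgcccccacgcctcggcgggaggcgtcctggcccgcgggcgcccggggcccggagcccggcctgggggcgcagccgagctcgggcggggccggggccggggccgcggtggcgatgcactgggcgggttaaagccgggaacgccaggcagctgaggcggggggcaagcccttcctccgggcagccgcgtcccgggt
Six3: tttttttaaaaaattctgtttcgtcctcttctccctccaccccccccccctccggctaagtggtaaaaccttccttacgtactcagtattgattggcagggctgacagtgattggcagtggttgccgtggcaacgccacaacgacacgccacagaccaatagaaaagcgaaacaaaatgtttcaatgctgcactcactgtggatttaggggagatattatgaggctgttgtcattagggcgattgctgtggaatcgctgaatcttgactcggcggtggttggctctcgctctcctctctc

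The Lhx2 window was 80.3% G and C with 38 CG pairs, against 49.7% and 13 pairs for Six3 and a median of 51.7% G and C over 33469 promoters of that length. Both strands were searched for the receptor motif in its common spelling, AGGTCA. A second spelling differs in the first base and reads GGGTCA. The spelling with another middle base is AGTTCA. With both of those changes the motif becomes GGTTCA. The only match in the Lhx2 window was 1 copy of the second spelling, read on the opposite strand, 190 bases before the start. Windows were listed for 6 members, and those of Six3, Six6, Rax, Hesx1 and Fezf1 held none of these letters. At least 1 of the 4 forms occurs in 44.4% of all promoters and the second spelling in 13.8%, so a single match is common. TAATTA, the core bound by many homeodomains, occurs in 5.36% of promoters and in no member's window. The start used for Lhx2, 42535744, lies inside the annotated gene (42523345 to 42553646), as does that for Six3, 14796256 (14791937 to 14796365). The Six3 start is close to the annotated 5′ end of its gene, whereas the Lhx2 start is far inside, so its window is not at the annotated 5′ end.

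The 6 samples had similar medians (6.73 to 6.79 log2 units), and pairs from the same group correlated at 0.9965 to 0.9974, those from different groups at 0.9937 to 0.9947. Of all tested rows, 1558 were called higher and 417 lower with retinoic acid (limma, Benjamini-Hochberg adjusted p under 0.05), or 823 higher and 785 lower after quantile normalization. Markers of several cell types stood above dim rows in their mean over the 6 samples. All 8 measured neural progenitor markers exceeded the level that 95% of 1220 olfactory receptor rows stay under (6.17 log2 units), as did all 11 of limb bud and lateral plate, all 11 of mesenchyme, all 8 of endothelium and all 8 of primitive blood, though Hbb was under it in the controls (mean 6.12). Olfactory receptors, genes of nasal sensory cells, served here as a reference for dim rows. Among all tested rows 65.5% stood above that level, so a marker above it is the usual case. Markers above it were far apart in their mean over the 6 samples. Those of primitive blood ran from 6.29 log2 units (Hbb) to 13.77 (Hbe1, a globin gene), with the globin gene Hbz at 13.29. Neural progenitor markers ran from 6.73 (Nes), under the median of all tested rows (6.76), to 12.71 (Vim). What part of the RNA came from blood cells was not tested. Of 23 other forebrain genes measured, 10 lay at or below the olfactory receptor reference, among them Otx2, which marks the anterior neural plate.

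Retinoic acid exposure was set against vehicle to ask which of the 9 factors differed. Lhx9 and Lhx2 fell, to 64.6% and 72.3% of the control level, and none of the 9 rose. Six3, Six6, Rax, Emx2, Hesx1, Fezf1 and Otx1 did not pass the test. Of all tested rows 9.75% were called, 2.06% lower and 7.69% higher, and the 2 falls among 9 members stand beside that background. Groups of 3 pools did not overlap for 3 of the 9 members (Lhx2, Lhx9 and Hesx1), against 26.0% of all tested rows. The members' median difference was -0.06 on the log2 scale, against 0.03 over all tested rows.

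**Figure D1:**
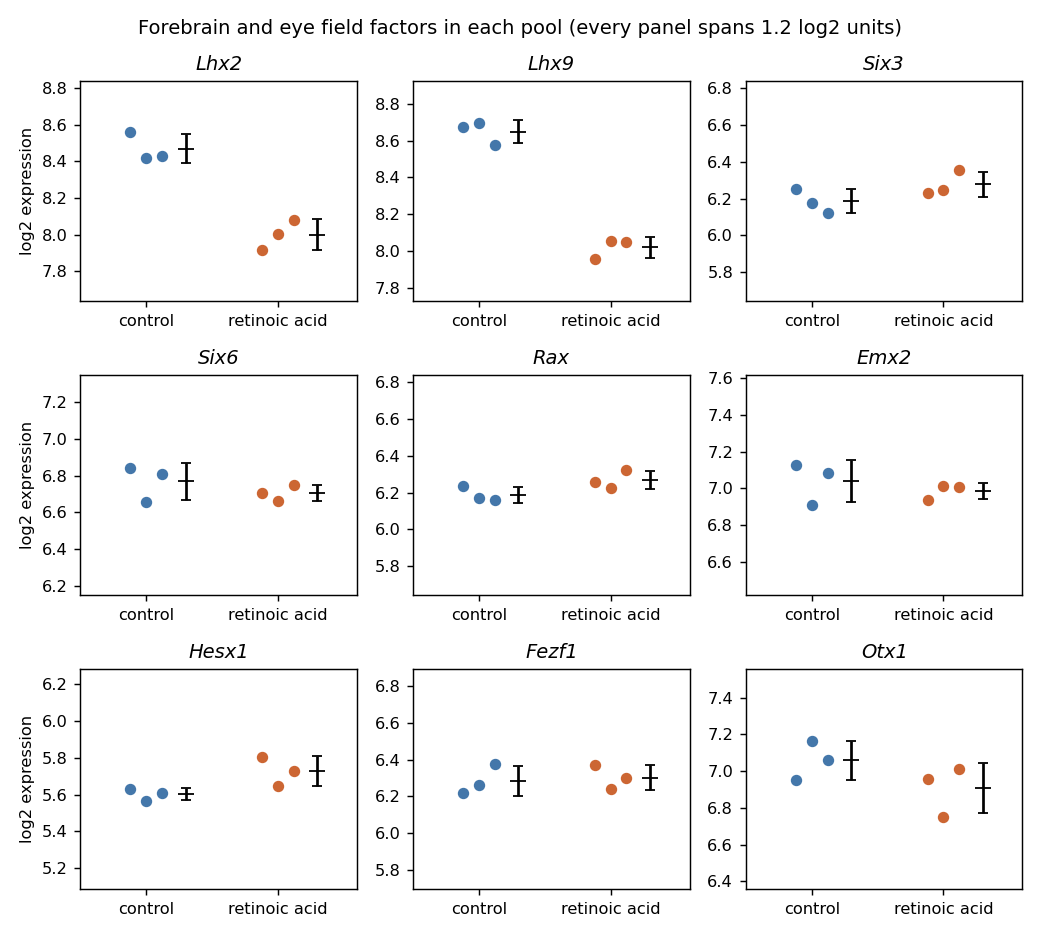
Log2 expression of each of the 9 factors in the 3 control (blue) and 3 retinoic acid (orange) pools, with mean and SD in black; each panel has its own axis of equal length. All retinoic acid pools lie below all controls for Lhx2 and Lhx9, and differences are small or overlapping in the other panels.

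Lhx9, a LIM homeodomain factor of the forebrain wall, the early gonad and the limb bud in mice, showed the larger fall. Its row (chromosome 13, 52139981 to 52160922, in the deposited table, for which the sources used here name no genome build) read 8.67, 8.70 and 8.58 log2 units in controls 1 to 3. In retinoic acid pools 1 to 3 it read 7.95, 8.06 and 8.05. Every retinoic acid pool thus lay well below the lowest control, and pools of a group differed little. Group means were 8.65 ± 0.063 in controls and 8.02 ± 0.057 with retinoic acid (SD, n = 3 each). The log2 difference was -0.63 ± 0.069 (SE), with a 95% interval of -0.77 to -0.48 and a limma adjusted p of 2.2e-05. Among the 417 rows called lower, 17 fell further.

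Lhx2, its closest relative among the members and a factor of the eye field, cortex and limb bud, fell as well. Its row (chromosome 3, 18129455 to 18147357) read 8.56, 8.42 and 8.43 log2 units in controls 1 to 3. It read 7.92, 8.001 and 8.08 in retinoic acid pools 1 to 3. The groups were apart, and the gap between them exceeded the range within either. Group means were 8.47 ± 0.079 in controls and 8.0 ± 0.083 with retinoic acid (SD, n = 3 each), for a log2 difference of -0.47 ± 0.072 (SE), with a 95% interval of -0.62 to -0.32 and a limma adjusted p of 0.00047. Here 55 rows called lower fell further.

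In these pools of cells, fewer cells carrying a transcript and less transcript per cell cannot be told apart. The falls of Lhx2 and Lhx9 kept their call when any single pool was left out. They lost it when each pool was shifted by the spike-in RNAs whose nominal amount is the same in both mixes (limma adjusted p = 0.24 for Lhx9 and 0.99 for Lhx2). That shift ran from -0.29 in control 3 to 0.22 in control 2, a spread within the controls. After it the differences were -0.59 and -0.43, and the groups still did not overlap for either gene. The 3 equal-amount spike-ins at control levels of 8 to 9.5 log2 units, near the level of Lhx2 and Lhx9, read -0.18, -0.23 and -0.46, and their part in these falls was not tested.

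The falls of the LIM pair were also set against each other. Lhx9 minus Lhx2, formed within each pool, was 0.12, 0.28 and 0.15 in controls 1 to 3 and 0.04, 0.06 and -0.03 in retinoic acid pools 1 to 3. All 3 retinoic acid values were under the lowest control value, a difference of -0.16. An exact two-sided permutation test over the 6 pools gave p = 0.10 (n = 3 per group), the smallest that 3 against 3 allows. Six6 minus Six3, the other related pair, went from 0.59, 0.48 and 0.69 to 0.47, 0.42 and 0.39, a difference of -0.16 with an exact permutation p = 0.10. Adjusted over these 2 exact tests, both p-values stayed at 0.10.

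**Figure D2:**
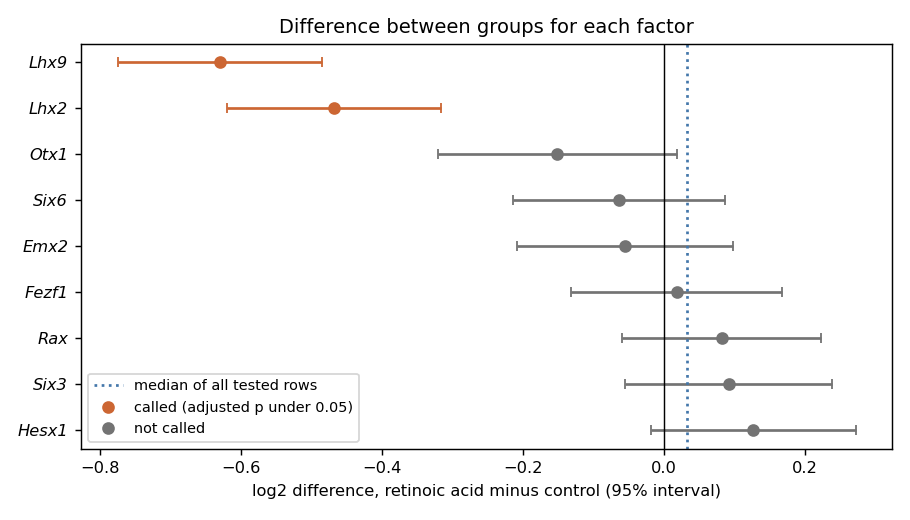
Log2 difference, retinoic acid minus control, with its 95% interval for each factor; the dotted line is the median of all tested rows at 0.03. Only the intervals of Lhx9 and Lhx2 lie wholly below 0, and the 7 others include it.

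Six3, which keeps the anterior neural plate from taking on a more posterior fate in mice, and Rax, which starts the retinal program, define the eye field. Six3 (chromosome 6, 9016302 to 9019163) read 6.25, 6.18 and 6.12 log2 units in controls and 6.23, 6.25 and 6.36 in retinoic acid pools. Rax (chromosome 18, 62567485 to 62571191) read 6.24, 6.17 and 6.16 in controls and 6.26, 6.23 and 6.32 with retinoic acid. Both genes overlapped between the groups, with a retinoic acid mean slightly above the control mean. The log2 differences were 0.09 ± 0.070 (SE, 95% interval -0.05 to 0.24, limma adjusted p = 0.50) for Six3 and 0.08 ± 0.067 (SE, 95% interval -0.06 to 0.22, adjusted p = 0.55) for Rax. Both rows stood just above the dim reference, over 95.6% of olfactory receptor rows.

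Six6, a relative of Six3 that acts in the retina, hypothalamus and pituitary, was not called either. Its row (chromosome 6, 95358546 to 95363526) read 6.84, 6.66 and 6.81 log2 units in controls and 6.70, 6.66 and 6.75 in retinoic acid pools. Control 2 was as low as the lowest retinoic acid pool. The log2 difference was -0.06 ± 0.071 (SE, 95% interval -0.21 to 0.09, limma adjusted p = 0.69).

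Emx2, a factor of the cerebral cortex and of the urogenital ridge, read 7.12, 6.91 and 7.08 log2 units in controls and 6.94, 7.01 and 7.01 with retinoic acid (chromosome 1, 266004257 to 266011265). Its lowest control lay below all retinoic acid pools. The log2 difference was -0.06 ± 0.073 (SE, 95% interval -0.21 to 0.10, limma adjusted p = 0.74).

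Otx1, an orthodenticle factor of the forebrain and midbrain, had the widest spread of the 9. It read 6.95, 7.16 and 7.06 log2 units in controls and 6.96, 6.75 and 7.01 in retinoic acid pools (chromosome 14, 102721413 to 102726867), so that only retinoic acid pool 2 was under every control. The log2 difference was -0.15 ± 0.081 (SE, 95% interval -0.32 to 0.02, limma adjusted p = 0.30).

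Hesx1, a repressor of the anterior neural plate and the pituitary primordium, read 5.63, 5.57 and 5.61 log2 units in controls and 5.81, 5.65 and 5.73 with retinoic acid (chromosome 16, 2255128 to 2257233). All retinoic acid pools were above all controls, but the lowest of them only by a little. The log2 difference was 0.13 ± 0.069 (SE, 95% interval -0.02 to 0.27, limma adjusted p = 0.31). It was the 1 member under the dim reference, above 71.0% of olfactory receptor rows, so whether its RNA was present was not detectable.

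Fezf1, a zinc finger factor of the early forebrain and olfactory system, overlapped most fully. It read 6.22, 6.26 and 6.38 log2 units in controls and 6.37, 6.24 and 6.30 in retinoic acid pools (chromosome 4, 49641144 to 49644471). The log2 difference was 0.02 ± 0.071 (SE, 95% interval -0.13 to 0.17, limma adjusted p = 0.93). Its sign turned without control 1 or retinoic acid pool 1 (both -0.02).

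The spike-ins show how a known difference was read at each level. The 23 whose nominal amount was 4 times higher in the mix given to controls have a nominal log2 difference of -2. Of these, 12 stood under 7 log2 units in controls, and they read -0.64 to 0.04 with a median of -0.11. Within that range, the 8 at control levels of 5.24 to 5.79 read -0.18 to 0.04, and the 4 at 6.06 to 6.72 read -0.64 to -0.28. At control levels of 7.35 and 7.81 the readings were -0.95 and -1.26. The 2 at control levels between 8 and 9 read -1.83 and -1.35, and 5 at levels of 9.94 to 12.2 read -1.81 to -1.41. Control means of Six3, Six6, Rax, Emx2, Hesx1, Fezf1 and Otx1 lay between 5.602 and 7.058. Hesx1, at 5.602, lay among the spike-ins whose 4-fold fall was read as close to 0, so a fall of that size in its RNA was not detectable. Neither set of spike-ins used here has a nominal rise, so how a rise of Hesx1 would be read was not tested. For the other 6 members the lower interval ends, from -0.05 for Six3 to -0.32 for Otx1, were nearer 0 than most readings of a 4-fold fall at like levels. Their intervals bound the array value, which was smaller than the nominal difference for every such spike-in. For Lhx2 and Lhx9, at 8.47 and 8.65 in controls, the fold values may likewise be understated, as nominal differences of -2 were nowhere read in full. Equal-amount spike-ins at control levels of 7.50, 7.65, 8.21, 9.02 and 9.46 read -0.18, -0.19, -0.18, -0.23 and -0.46, so a fall may also be overstated. Which of these applies to Lhx2 and Lhx9 was not tested.

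**Figure D3:**
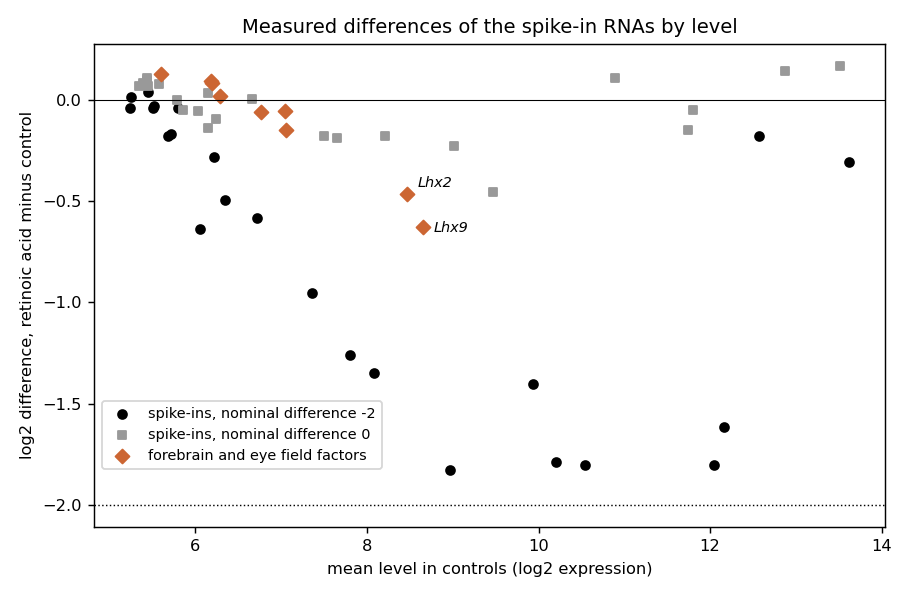
Measured log2 difference against mean control level for spike-ins of nominal difference -2 (black, dotted line at -2) and 0 (grey squares), with the 9 factors in orange. Black points rise towards 0 below a level of 7, where Six3, Six6, Rax, Hesx1 and Fezf1 lie, with Emx2 and Otx1 just above it at 7.04 and 7.06; the 2 brightest black points, at 12.6 and 13.6, also lie near 0.

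Other genes of the forebrain and eye are given beside the background of 7.69% of all tested rows called higher and 2.06% lower. Of 23 other forebrain genes 4 rose and none fell, with a list median of 0.08. Sp8, a zinc finger factor of the anterior neural ridge and the limb bud ridge, rose by 0.51 ± 0.070 (SE, limma adjusted p = 0.00019). The distal-less genes Dlx5 and Dlx2, of the ventral forebrain, placodes and pharyngeal arches, rose by 0.40 and 0.43 (adjusted p = 0.00115 and 0.0022). Otx2 was higher by 0.28 (adjusted p = 0.026), but its row was under the dim reference, and it did not pass with control 2 (0.14), retinoic acid pool 1 (0.068) or retinoic acid pool 3 (0.089) left out.

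Of 17 other eye genes 3 rose and 1 fell, with a median of 0.01. Sox2, a factor of neural stem cells and of the eye, went from 8.20, 8.27 and 8.04 log2 units in controls to 9.003, 9.11 and 8.87 with retinoic acid, a rise of 0.83 ± 0.079 (SE, limma adjusted p = 6.3e-06). Pax6, a master factor of eye development, rose by 0.42 (adjusted p = 0.0013). Foxd1, of the temporal retina and of mesenchyme, rose by 0.30 (adjusted p = 0.010), a call lost without retinoic acid pool 3 (0.058). Tbx5, which patterns the dorsal retina and starts the forelimb, was the 1 that fell. It read 9.41, 9.41 and 9.34 log2 units in controls and 8.77, 9.03 and 8.88 with retinoic acid, with no overlap (log2 difference -0.49 ± 0.075 SE, adjusted p = 0.00047). The retinal genes Vax2 and Aldh1a3 were at -0.03 and 0.02.

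**Figure D4:**
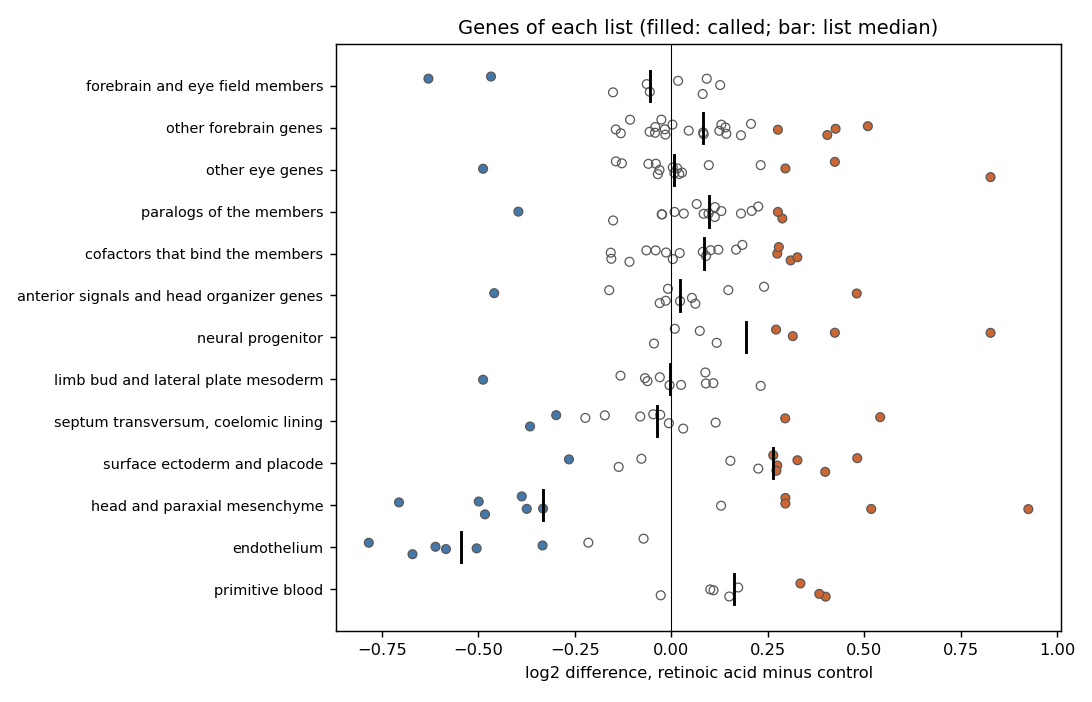
Log2 difference of each measured gene in the members and in every list; filled points passed the test (orange higher, blue lower) and black bars are list medians. The 2 blue points of the top row are Lhx9 and Lhx2, and most blue points elsewhere belong to endothelium and mesenchyme.

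Relatives of the members were examined as 17 genes of the same families. Of these Isl1, a LIM factor of heart progenitors, hindlimb and motor neurons, fell from 8.92, 8.88 and 8.79 log2 units to 8.44, 8.62 and 8.35, a difference of -0.40 ± 0.077 (SE, limma adjusted p = 0.0031). Lmx1a, a LIM factor of the roof plate, and Otx2 rose. The call of Lmx1a (0.29, adjusted p = 0.017) was lost without control 1 (0.082), control 3 (0.069), retinoic acid pool 2 (0.063) or retinoic acid pool 3 (0.058). Lmx1b, of the dorsal limb and midbrain, was at -0.15 (adjusted p = 0.20). Without retinoic acid pool 3 the family list held 1 call, Isl1.

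Genes for proteins that bind the members were examined next. Of 18 genes of LIM cofactors, Groucho-type corepressors and partners of Six3 and Six6, 4 rose and none fell. Without control 3, 2 rose, as did 2 without retinoic acid pool 2. After quantile normalization, after cyclic loess and without retinoic acid pool 3, 2 rose and 1 fell. Gmnn, which encodes geminin, a replication inhibitor that also binds Six3, rose by 0.33 (limma adjusted p = 0.0068), and Eya2, a coactivator for relatives of Six3, by 0.31 (adjusted p = 0.0067). Eya1, of the same family, was higher by 0.27 (adjusted p = 0.028), which did not pass without control 2 (0.107), control 3 (0.072), retinoic acid pool 2 (0.113) or retinoic acid pool 3 (0.066). Ldb1, the adaptor through which LIM homeodomain factors pair up, was higher by 0.28 (adjusted p = 0.031). Its call was lost without control 1 (0.074), control 3 (0.14), retinoic acid pool 2 (0.10) or retinoic acid pool 3 (0.090), and its difference was 0.09 after quantile normalization or cyclic loess.

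Signals that pattern the front of the embryo moved in single cases. Of 11 measured, the ligand gene Shh fell by 0.46 on the log2 scale (limma adjusted p = 0.00059) and the Wnt antagonist Sfrp5 rose by 0.48 (adjusted p = 0.00061). Dkk1, a Wnt antagonist required for head formation in mice, was at -0.16 (adjusted p = 0.18).

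Markers of other cells that use these factors are given beside the falls of Lhx2 and Lhx9. Of 11 limb bud and lateral plate genes Tbx5 fell and none rose, with a mean list level of 8.88 to 8.93 log2 units in controls and 8.82 to 8.94 in retinoic acid pools, which overlapped. Tbx3 was at 0.23 (adjusted p = 0.085) and passed as higher without retinoic acid pool 1 (0.31, adjusted p = 0.034) and when only rows at or above the median level were fitted (adjusted p = 0.032). After quantile normalization or cyclic loess 3 of the 11 fell, the others being Prrx1 (-0.25 and -0.26) and Meis2 (-0.28 and -0.27). Of 12 genes of the septum transversum and coelomic lining, Tbx18 (-0.37) and Wt1 (-0.30) fell, while Aldh1a2 (0.54) and Gata4 (0.30) rose. Gata4 did not pass with control 2 (adjusted p = 0.056) or retinoic acid pool 3 (0.0501) left out.

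Of 8 endothelial genes 6 fell and none rose, and the mean list level was 8.22 to 8.30 log2 units in controls and 7.76 to 7.85 in retinoic acid pools. Cdh5, the cadherin of endothelial junctions, was lower by 0.78 (log2 difference -0.78 ± 0.072 SE, limma adjusted p = 4.3e-06). Of 11 genes of head and paraxial mesenchyme, 6 fell and 4 rose, with list means of 7.84 to 7.88 in controls and 7.79 to 7.82 in retinoic acid pools. Col1a1 fell by 0.71 and Postn by 0.50 on the log2 scale, both matrix genes, and Meox1, a somite factor, rose by 0.93. Of 8 neural progenitor genes 4 rose, or 2 without control 1 or retinoic acid pool 2, with list means of 8.56 to 8.64 in controls and 8.80 to 8.88 with retinoic acid. Of 11 surface ectoderm and placode genes 6 rose and 1 fell (2 to 4 calls without control 2, control 3 or any retinoic acid pool), with means of 7.74 to 7.84 and 7.93 to 8.03. Of 8 primitive blood genes 3 rose, with means of 9.25 to 9.39 and 9.47 to 9.52. Of these, Hbb lost its call without control 1 (limma adjusted p = 0.16), control 3 (0.055), retinoic acid pool 2 (0.059) or retinoic acid pool 3 (0.080). Hbe1 was at 0.08 after quantile normalization (limma adjusted p = 0.52) and at -0.0028 after cyclic loess. The lists share genes, so their calls are not all separate observations. Sox2 and Pax6 count in the eye and neural progenitor lists, Foxd1 in the eye and mesenchyme lists, and Tbx5 in the eye and limb bud lists. Otx2 counts in the forebrain and family lists, and Eya1 in the cofactor and surface ectoderm lists. No marker list had rows at 0, as array values have no zero, and the part of any of these cell types in the falls of Lhx2 and Lhx9 was not tested.

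The context genes called here also lost their calls under the spike-in shift, except Sox2, Meox1 and Cdh5. Over the 6 samples, the row most like Lhx9 by Pearson correlation was Cdh5 (r = 0.997), followed by a row of Rhot1 (r = 0.997), a mitochondrial transport gene, and Gpr50 (r = 0.995), an orphan receptor. Gpr50 read 7.26, 7.36 and 7.12 log2 units in controls and 6.48, 6.56 and 6.51 with retinoic acid. Most like Lhx2 were RGD1311744 (r = 0.999), LOC100912450 (r = 0.996) and Rfx5 (r = 0.993), none of which was called. Over 6 pools that share 1 contrast other rows correlate highly too: 163 rows (0.80%) reached 0.95 with Lhx9 and 101 (0.50%) with Lhx2. Lhx2 and Lhx9 correlated at 0.97, whereas the other members ranged from -0.84 (Hesx1) to 0.58 (Otx1) with Lhx9.

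None of the 3 nearest named neighbours of the LIM pair within 200 kb passed the test. Next to Lhx9, Nek7 at 197 kb was at -0.16 (limma adjusted p = 0.22) and RGD1566099 at 3.90 kb was at 0.03. Dennd1a, 133 kb before Lhx2, was at -0.15 (adjusted p = 0.26). On the other side the nearest named row, Nek6, a mitotic kinase gene, began 201 kb away and was chosen after its value was seen. It read 8.52, 8.52 and 8.50 log2 units in controls and 8.24, 8.26 and 8.23 with retinoic acid. The groups were far apart relative to their spread (log2 difference -0.27 ± 0.065 SE, adjusted p = 0.012), and the call was lost without control 1 (0.052).

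**Figure D5:**
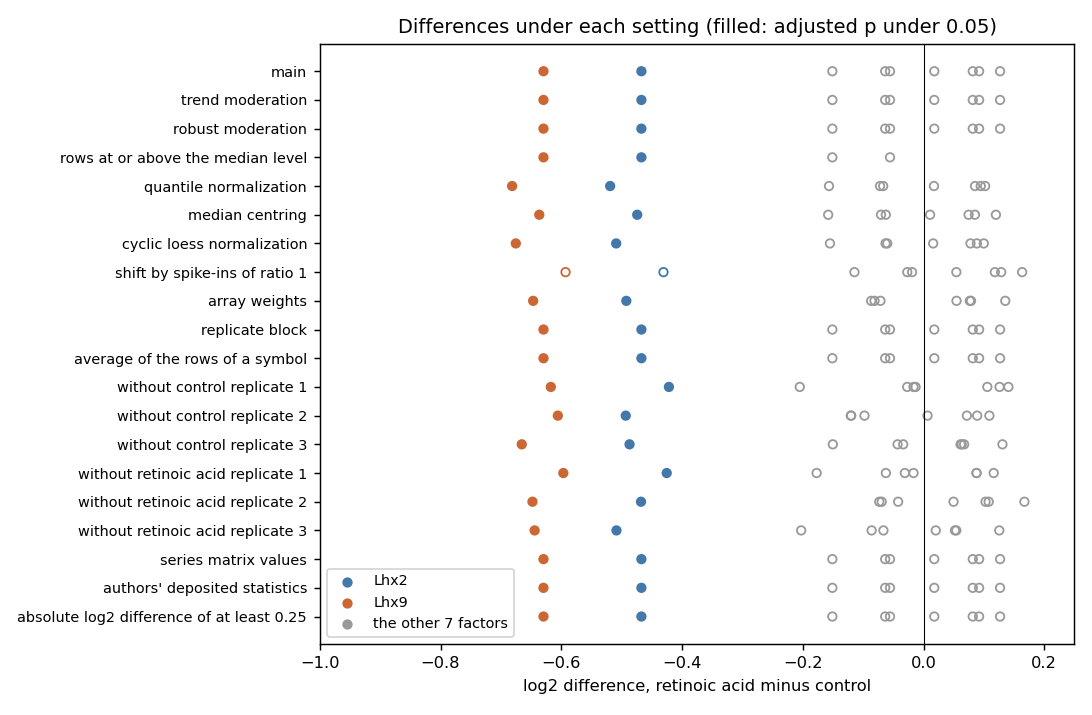
Log2 difference of the factors under the main setting and 19 alternatives; filled points passed the test. The alternative of rows at or above the median level holds only Lhx2, Lhx9, Emx2 and Otx1. Lhx9 and Lhx2 range up to -0.42, with open points only under the spike-in shift, and no point of the 7 other factors is filled.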

How the data were processed

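The 6 sample columns of the deposited table hold log2 expression, which the authors had normalized by a method not given in the sources used here; they range from 4.766 to 14.35. The labelling was Affymetrix standard, per the labels' protocols. The deposited log2 fold change column equals the difference of group means to within 8e-09. The t and B columns are scores, and the p-value columns hold the authors' statistics, as the file headers name them; limma is named in the submitters' processing notes. The series matrix holds the same values. Control columns, prefixed WT, were matched to control samples by number.

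Of 29656 rows, 167 array controls and 9231 rows without name or accession were left out. The other 20258 were fitted with limma 3.58.1 in R 4.3.3, retinoic acid minus control, no block, two-sided, Benjamini-Hochberg adjusted; a call is an adjusted p under 0.05. The fit was tested on simulated data. Members, lists and alternatives were chosen with earlier results of these data known. Named context genes are the up to 4 called by smallest p of each of 5 context and 7 marker lists; uncalled genes given with values, the motifs, the dim reference and the comparison of spike-ins by level were chosen with the data in view. Spike-in amounts per subgroup came from general knowledge of the product. Entrez identifiers of all 9 members matched RefSeq (GRCr8). The number of arrays limits the precision. No label says that a replicate number marks a shared litter or day. Whether the numbers pair the samples is thus unknown, and the main fit used no pairing. Figures used matplotlib 3.10.9.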

Additional observations from a re-analysis of the deposited data

How the results depend on the processing

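The falls of Lhx2 and Lhx9 passed the test under 18 of 19 alternatives, not all of which could differ from the main fit. The series matrix holds the same values, and the minimum log2 difference of 0.25 reuses the main fit, where both genes fall further. Averaging the rows of a symbol left the values of both genes unchanged, as each has 1 row. Without single samples, Lhx9 ranged from -0.67 to -0.60 and Lhx2 from -0.51 to -0.42, 2 members were called each time, and 1252 to 1589 rows were called in all (1252 without control 3). Under the spike-in shift, 0 members by limma (2 in the main setting) and 47 rows, 40 higher and 7 lower, were called; by construction it adds the spread of the spike-ins to every row. The direction of Fezf1 turned without single samples (-0.017 to 0.063). Outside the members, Vim turned after quantile normalization (-0.036) and cyclic loess (-0.042), as did Hbe1 after cyclic loess (-0.0028) and Meis2 under the spike-in shift (0.0070) and without single samples (-0.089 to 0.031); the cause was not tested. With the replicate block, both members stayed called at -0.47 and -0.63, 2416 rows were called against 1975, and Tbx3 passed as higher (0.23, adjusted p = 0.033). Same-numbered pools correlated at -0.11, 0.235 and 0.235 in their deviations, and not every pool correlated best with its own number. Low signal limits Hesx1, the 1 member under the dim reference, most directly.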

Other observations

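Rows without a gene name lie near several members, and their statistics here are those of the authors' deposited table. In that table a row of 106 bases, 190 kb beyond Emx2 on chromosome 1 (266200864 to 266200969 in the file's coordinates), was lower with retinoic acid by 0.48 on the log2 scale (log2 difference -0.48, adjusted p = 0.0010). It was chosen after its value was seen and reads 6.66, 6.57 and 6.59 log2 units in controls and 6.09, 6.05 and 6.25 in retinoic acid pools. An unnamed row of 316 bases, 51.1 kb from Six6 on chromosome 6, was higher in the authors' deposited table (log2 difference 0.30, adjusted p = 0.027), and was also chosen after its value was seen. It reads 9.60, 9.47 and 9.33 log2 units in controls and 9.76, 9.80 and 9.75 in retinoic acid pools. In the authors' deposited table a row of 122 bases, 18.2 kb from Lhx9, was at 0.11 (adjusted p = 0.51). Among the nearest named rows of the uncalled members, Rpl35a, 4.75 kb from Six6, was at 0.39 (limma adjusted p = 0.00098). Ehbp1, 5.12 kb from Otx1, was at -0.23 (limma adjusted p = 0.038). Both were chosen after their values were seen, and the other nearest named rows of these members were not called.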
